A study of Mus musculus with 12 samples.

Results

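The 10 islet genes, Pdyn, Serpina7, Ttyh1, Kcnj12, Itpr2, Gnai1, Cabp7, Dlg2, Eef1a2 and Hdac6, were followed across 12 RNA sequencing libraries of mouse pancreatic islets. They are 10 of the 54532 genes counted in each library, and were chosen by their measured difference between high fat and standard diet in Sirt3 knockout islets, or by how far that difference departed from the one in wild type islets. All 10 passed the filter on low counts, which left 16076 genes. The islets came from male C57BL/6 mice, labelled as 40 weeks old, that were wild type (WT) or carried a knockout of Sirt3, the gene of a mitochondrial deacetylase, selective for beta cells (KO). Mice of either genotype ate standard food throughout (STD, 6.2% fat) or were moved to food that draws 60% of its calories from fat (HFD), which gave 4 groups of 3 libraries: STD WT, STD KO, HFD WT and HFD KO. High fat feeding lasted 36 weeks and followed 4 weeks of standard food in the WT mice but 6, 5 and 6 weeks in the mice of HFD KO 1, 2 and 3, which sums to 41 to 42 weeks against the labelled 40. Not given in the sources used here are the promoter that drives the beta cell deletion, how many animals stand behind a library, and whether replicates are separate animals, so p-values measure the spread between these libraries.

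Islets are clusters of endocrine cells in which beta cells release insulin when glucose metabolism closes potassium channels, depolarises the membrane and lets calcium in. Inhibitory G proteins, calcium stores gated by inositol trisphosphate and locally released peptides tune that release. Islet endocrine cells share much of their secretory machinery with neurons, so several genes best known from brain are also read in islet RNA.

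Total counts lay between 16037709 and 20864920 per library, and insulin transcripts took 19.7% to 33.5% of them. Levels are given as CPM, counts scaled to library size, after TMM, a normalization that assumes no change for most genes. Sirt3 read 9.03 to 11.8 CPM in the 6 WT libraries and 5.85 to 7.84 CPM in 5 of the 6 KO libraries, but 11.5 CPM in the library labelled HFD KO 2. Tph1, the serotonin synthesis enzyme, read 43.5 CPM in STD WT 3 against 0.696 to 1.33 CPM in the other WT libraries and 382 to 1148 CPM in the KO libraries. Summed beta cell markers (10 of 10 found) lay between 188429 and 406214 CPM over all libraries, and overlapped between groups. Almost all of this sum was Ins1, Ins2 and Iapp. Of the 10 markers, 3 were lower in KO averaged over diets (Slc2a2, Ucn3 and Slc30a8) and 0 higher, at an edgeR adjusted p under 0.05. Slc30a8 read 476 to 529 CPM in the KO libraries and 633 to 1075 CPM in the WT libraries. The 7 macrophage markers summed to 293 to 362 CPM in HFD KO, 144 to 227 in HFD WT, 224 to 294 in STD KO and 169 to 232 in STD WT. The 5 adipocyte markers summed to 30.7 to 39.3 CPM in HFD KO, 10.3 to 18.2 in STD KO, 14.6 to 25.8 in HFD WT and 12.5 to 34.5 in STD WT. Almost all of the adipocyte sum in HFD KO was Fabp4, at 29.4 to 38.7 CPM there, while Adipoq did not pass 0.062 CPM and Lep did not pass 0.048 CPM in that group. The 7 alpha cell markers summed to 27795 to 35212 CPM in STD WT, 17749 to 26147 in STD KO, 19744 to 23741 in HFD WT and 13258 to 35632 in HFD KO. The 10 Schwann cell and neuron markers summed to 188 to 222 CPM in HFD KO, 172 to 211 in STD KO, 133 to 200 in HFD WT and 147 to 194 in STD WT. Of these, Sox10 stayed at 0.512 CPM or less in every library, and Ngfr, a neurotrophin receptor, read 17.4 to 22.5 CPM in STD KO and 7.66 to 14.1 in HFD KO against 0.643 to 2.14 CPM in the WT libraries (log2 genotype difference 3.23, edgeR adjusted p = 2.14e-05). Whether these cell types play a part in the levels below was not tested, and in bulk RNA fewer cells of a type and less RNA per cell cannot be told apart.

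The choice of the genes can be read from the fits across all 16076 genes. In KO islets, 7 genes had an adjusted p under 0.05 for HFD against STD (0.0435% of the genes tested), 5 of them higher with HFD (0.0311%) and 2 lower (0.0124%). These were Ttyh1, Dlg2, Gnai1, Serpina7, Pdyn, Kcnj12 and Eef1a2, in that order of p. The last one inside the threshold, Eef1a2, had an adjusted p of 0.0400 by edgeR's quasi-likelihood test. Hdac6, Cabp7 and Itpr2 entered for the interaction, the KO diet difference minus the WT diet difference, in which they ranked 3, 6 and 7 by p. Eef1a2, Dlg2 and Ttyh1 ranked 1, 2 and 4 there, while Gfra3 at rank 5 and Cebpd at rank 8 are not among the 10. The interaction called 0 genes by edgeR's test (0%), with 1271 genes at an unadjusted p under 0.05 and 31 called by DESeq2. The 7 calls in KO depended on single libraries: 802 genes were called without HFD KO 3, 9 without HFD WT 2, and 0 to 2 without any other single library. Since these contrasts chose the genes, their values below are a description without a test. The test given for them is KO against WT averaged over both diets, a contrast that is orthogonal to both on the log scale with equal groups, which a count fit holds to only in part, and that shares their estimate of the spread. Both KO groups entered each of these contrasts and the WT groups the interaction, so this average rests on libraries that also chose the genes. Where a gene differs between genotypes with 1 diet alone, the average is then no independent evidence.

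The 250 bases before the RefSeq transcription start (build GRCm38.p6) are shown for 6 of the genes, 3 from each of 2 sets whose levels ran together over the libraries. Ttyh1, Eef1a2 and Serpina7 were highest in HFD KO, with Pearson r of log2 CPM from 0.78 to 0.91 between them. Dlg2 ran with them at 0.86 to 0.95, but has 3 starts and is given by its values only. Cabp7, Itpr2 and Hdac6 were lowest in HFD KO, with r from 0.92 to 0.95. Each sequence is written 5′ to 3′ on the strand of its gene and ends at the base before the start, and capitals mark matches to the motifs named after them. The windows are chr7:4119280-4119529 (plus strand) for Ttyh1, chr2:181157016-181157265 (minus) for Eef1a2, chrX:139085237-139085486 (minus, the upstream one of 2 RefSeq starts) for Serpina7, chr11:4747180-4747429 (minus) for Cabp7, chr6:146502224-146502473 (minus) for Itpr2 and chrX:7947890-7948139 (minus) for Hdac6.
Ttyh1: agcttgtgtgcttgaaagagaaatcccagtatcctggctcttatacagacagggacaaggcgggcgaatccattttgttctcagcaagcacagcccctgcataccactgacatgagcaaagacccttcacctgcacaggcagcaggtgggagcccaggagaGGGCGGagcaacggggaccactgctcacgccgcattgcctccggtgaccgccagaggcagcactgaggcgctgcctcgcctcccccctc
Eef1a2: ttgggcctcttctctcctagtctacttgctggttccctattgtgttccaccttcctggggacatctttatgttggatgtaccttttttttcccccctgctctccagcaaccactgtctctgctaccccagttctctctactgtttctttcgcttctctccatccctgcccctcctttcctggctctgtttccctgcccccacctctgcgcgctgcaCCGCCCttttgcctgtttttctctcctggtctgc
Serpina7: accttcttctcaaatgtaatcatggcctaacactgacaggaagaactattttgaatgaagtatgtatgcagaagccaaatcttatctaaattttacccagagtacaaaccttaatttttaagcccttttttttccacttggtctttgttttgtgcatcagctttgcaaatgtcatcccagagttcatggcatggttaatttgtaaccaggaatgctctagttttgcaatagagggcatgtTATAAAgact
Cabp7: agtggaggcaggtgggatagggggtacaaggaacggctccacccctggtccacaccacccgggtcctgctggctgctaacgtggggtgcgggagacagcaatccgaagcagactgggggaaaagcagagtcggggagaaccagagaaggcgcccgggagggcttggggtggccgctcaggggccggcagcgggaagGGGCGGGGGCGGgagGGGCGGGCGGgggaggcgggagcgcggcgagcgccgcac
Itpr2: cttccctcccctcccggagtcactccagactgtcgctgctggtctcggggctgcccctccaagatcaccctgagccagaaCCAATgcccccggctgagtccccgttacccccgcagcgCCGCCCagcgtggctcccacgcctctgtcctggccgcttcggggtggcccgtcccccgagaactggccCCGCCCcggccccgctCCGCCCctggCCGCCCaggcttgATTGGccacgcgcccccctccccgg
Hdac6: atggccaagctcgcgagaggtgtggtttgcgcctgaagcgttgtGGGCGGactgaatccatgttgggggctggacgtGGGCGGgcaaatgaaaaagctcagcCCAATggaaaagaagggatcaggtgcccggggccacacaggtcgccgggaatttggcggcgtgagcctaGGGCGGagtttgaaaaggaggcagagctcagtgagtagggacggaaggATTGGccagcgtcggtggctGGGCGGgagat

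GC content was 72.4% for Cabp7, 74.4% for Itpr2 and 61.2% for Hdac6, against a median of 52.4% (quartiles 45.2% and 61.2%) over all 32851 RefSeq windows of that length. Each of these 3 windows held 4 matches to the GC box GGGCGG, in Cabp7 all between 54 and 30 bases before the RefSeq start. That start lies upstream of the GENCODE range of Cabp7, which ends at 4746778. For Cabp7, Serpina7, Gnai1 and Pdyn, bases after the RefSeq start were not found in a GENCODE transcript of the gene. Kcnj12, which was also lowest in HFD KO, had 56.0% and no GC box. Its only window, chr11:61065554-61065803, lies inside the locus rather than before it, as do the windows of Dlg2. In the other set, GC content was 60.4% for Ttyh1, close to Hdac6, 54.0% for Eef1a2, 36.0% for Serpina7 and 42.8% to 45.6% for the 3 windows of Dlg2, which held no GC box. Ttyh1 and Eef1a2 held 1 GC box each, 89 to 84 and 34 to 29 bases before the start, and Serpina7 held none, but had a TATAAA 10 to 5 bases before the upstream start, which is 27 to 22 bases before the downstream one. On both strands, a GC box was found in windows of 6 of the 10 genes (32.7% of all windows), CCAAT in those of Pdyn, Itpr2, Dlg2 and Hdac6 (33.9%) and TATAAA in those of Dlg2 and Serpina7 (12.4%). The E-box CACGTG was found for Gnai1 (6.02%), whose window had 79.2% GC, and TTCNNNGAA, the letters of a STAT site, for the downstream of the 2 Pdyn starts (7.02%). No window of the 10 genes held TGACGTCA (1.55% of all windows), TGANTCA (6.75%), GTAAACA (3.17%), TCACNCCAC (1.05%) or TTCAGCACC (0.301%). The genes have 14 windows in all, so a gene with several starts had more chances of a match, and a match describes letters, not binding.

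**Figure D1:**
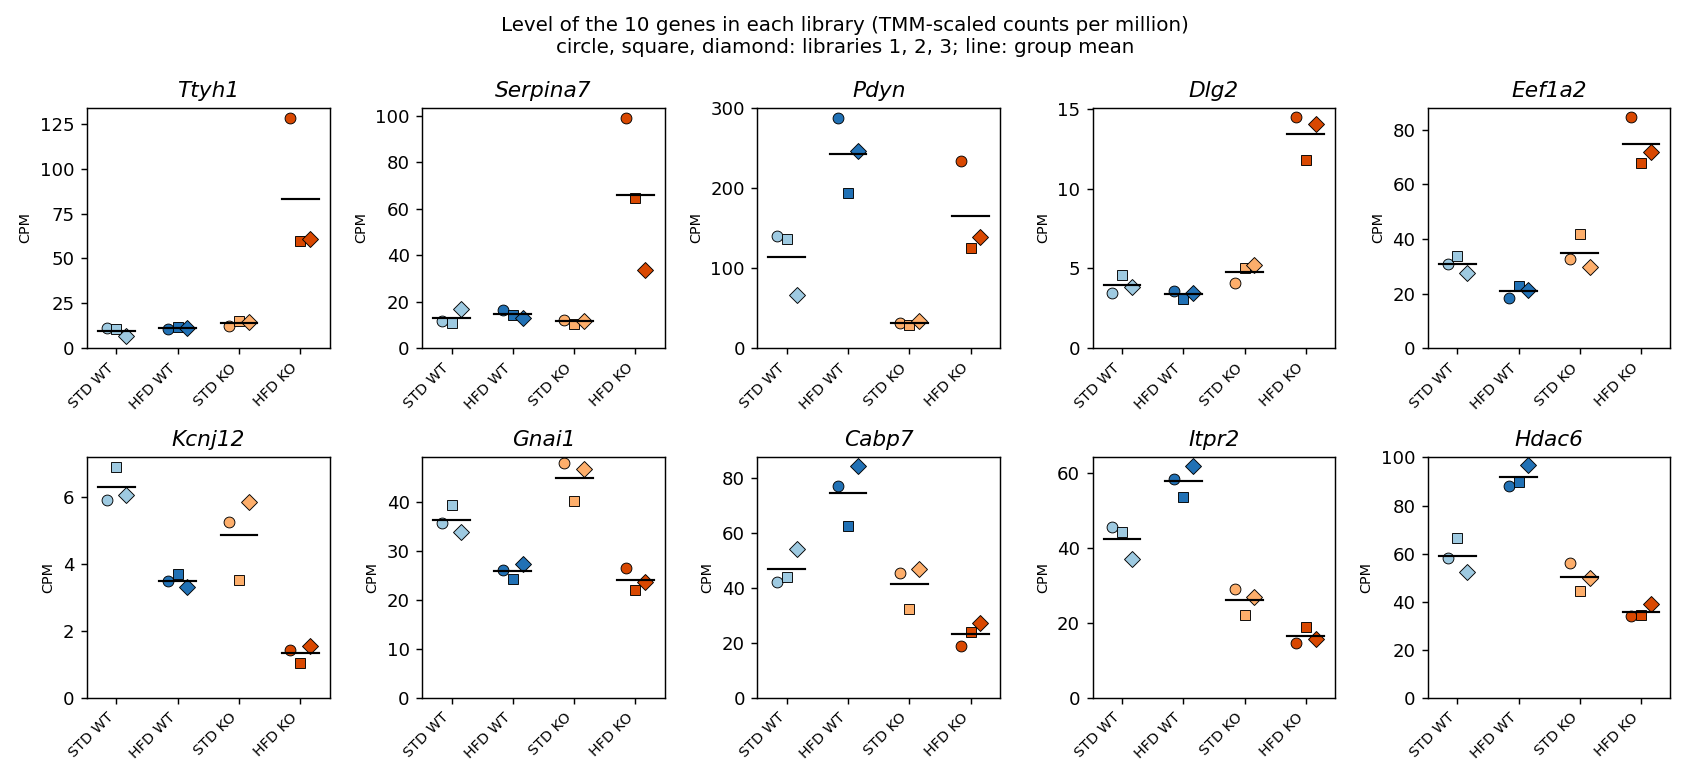
Level of each of the 10 genes by library, in TMM-scaled CPM on a linear axis from 0, 1 panel per gene. Points are libraries, grouped by diet and genotype, and lines are group means. Ttyh1, Serpina7, Dlg2 and Eef1a2 were above all other libraries in the 3 HFD KO libraries, and Kcnj12, Cabp7, Itpr2 and Hdac6 below them.

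Secreted products came first. Pdyn encodes prodynorphin, the precursor of the dynorphin opioid peptides that act on kappa receptors, and lies on mm10 chromosome 2, 129686565 to 129699844, minus strand. Its libraries 1 to 3 read 141, 137 and 66.3 CPM in STD WT, 32.2, 29.3 and 34.1 CPM in STD KO, 288, 194 and 247 CPM in HFD WT, and 234, 125 and 139 CPM in HFD KO. The STD KO libraries were the lowest of the 12, and both genotypes were higher with HFD without overlap. The group means were 115 ± 42.1 CPM in STD WT, 31.8 ± 2.41 in STD KO, 243 ± 47.4 in HFD WT and 166 ± 59.0 in HFD KO (SD, n = 3). Between diets the log2 difference was 2.38 (SE 0.32) in KO and 1.08 (SE 0.30) in WT, both upward with HFD. STD KO stood 3.60-fold below STD WT, whereas the HFD KO and HFD WT libraries overlapped. Averaged over diets, Pdyn was lower in KO by a log2 fold change of -1.20 (SE 0.21, adjusted p = 0.00471, by edgeR's quasi-likelihood test, adjusted by Benjamini-Hochberg over all genes).

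Penk, the precursor of the enkephalin opioid peptides, went the other way between genotypes. Its means were 4.03 ± 0.887 CPM in STD WT, 11.99 ± 1.34 in STD KO, 1.42 ± 1.11 in HFD WT and 13.4 ± 2.09 in HFD KO (SD, n = 3), and it rose in KO by 2.41 on the log2 scale (SE 0.32, edgeR adjusted p = 0.00065). Of the 7 other opioid precursors and receptors, 3 had enough counts to test, of which Penk was the 1 called, and none of the kappa, mu and delta receptor genes Oprk1, Oprm1 and Oprd1 passed the filter. Between diets none of the 3 was called in either genotype, and their median log2 difference in KO was 0.16, beside -0.03 over all genes.

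Serpina7 encodes thyroxine-binding globulin, a carrier of thyroid hormone in blood that the liver is best known to secrete (X chromosome, 139079257 to 139085236, minus strand). In STD WT it read 11.8, 10.7 and 16.7 CPM, in STD KO 12.3, 10.5 and 11.95, in HFD WT 16.6, 14.1 and 13.2, and in HFD KO 99.1, 64.8 and 33.7 CPM. The other 3 groups shared 1 range, and every HFD KO library lay above it, but these 3 spread by almost their own mean, 65.9 ± 32.7 CPM (SD, n = 3). Diet differences in log2 were 2.51 (SE 0.33) in KO and 0.16 (SE 0.32) in WT. The mean in HFD KO was 5.70-fold that of STD KO and 4.50-fold that of HFD WT, while under STD the KO mean was 0.883 times the WT mean with overlapping libraries. Averaged over diets Serpina7 was higher in KO by 0.99 on the log2 scale (SE 0.23, edgeR adjusted p = 0.0195). The call was lost without STD WT 1 (0.0501), STD WT 2 (0.0569) or HFD WT 3 (0.0634), as edgeR adjusted p-values. It rests on HFD libraries that also entered the choice.

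The other 2 main blood carriers of thyroid hormone had different orders of groups. Alb, serum albumin, had means of 36.8 CPM in STD WT, 36.7 in HFD WT and 40.0 in HFD KO, and 746 CPM in STD KO, where 1 library reached 2173 CPM. Ttr, transthyretin, which alpha cells make in quantity, averaged 1749 ± 180 CPM in STD WT, 1290 ± 312 in STD KO, 1243 ± 110 in HFD WT and 1429 ± 602 in HFD KO (SD, n = 3). Of the 9 other tested genes of thyroid hormone binding, transport, conversion and reception, 1 was called between genotypes: Thra, a nuclear receptor of the hormone, fell in KO by 0.44 on the log2 scale (SE 0.09, edgeR adjusted p = 0.0140). None was called between diets in KO or in WT.

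Channels formed the second group. Ttyh1 encodes a tweety family membrane protein, a family described in connection with chloride currents and best known from neural tissue (chromosome 7, 4119408 to 4136708, plus strand). The WT libraries read 11.3, 10.6 and 6.90 CPM under STD and 10.7, 12.03 and 11.1 CPM under HFD. KO libraries read 12.7, 15.3 and 14.6 CPM under STD and 128, 59.9 and 60.8 CPM under HFD. All 6 KO libraries therefore lay above all 6 WT libraries, narrowly under STD and by several fold under HFD. HFD KO averaged 82.9 ± 39.0 CPM against 14.2 ± 1.37 in STD KO and 11.3 ± 0.671 in HFD WT (SD, n = 3), which is 5.84-fold and 7.34-fold. The diet difference was 2.55 (SE 0.29) in KO and 0.23 (SE 0.29) in WT on the log2 scale, and without HFD KO 1, the highest library, the KO value was 2.09. Ttyh1 rose in KO over both diets by 1.72 (SE 0.20, edgeR adjusted p = 0.000294). Its paralogues Ttyh2 and Ttyh3 had log2 genotype differences of -0.11 and -0.33 and KO diet differences of 0.08 and -0.39, none of them called. Among the 11 other tested genes of tweety and volume-regulated chloride channels 1 was called between genotypes, Lrrc8c, a subunit of the volume-regulated channel, higher in KO by 1.05 (edgeR adjusted p = 0.0332), a call kept in 5 of 12 fits that left out 1 library.

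Kcnj12 encodes an inward rectifier potassium channel, one of the channels that hold the resting membrane potential (chromosome 11, 61022564 to 61071131, plus strand). Its libraries read 5.91, 6.90 and 6.06 CPM in STD WT, 5.25, 3.52 and 5.85 in STD KO, 3.48, 3.69 and 3.31 in HFD WT and 1.42, 1.03 and 1.55 CPM in HFD KO. The HFD KO libraries were the lowest of all, and HFD was lower than STD without overlap in both genotypes. The HFD KO values rested on 15 to 32 counts per library, and their mean of 1.34 ± 0.268 CPM (SD, n = 3) was 3.65-fold below that of STD KO. The log2 diet difference was -1.86 (SE 0.25) in KO and -0.85 (SE 0.24) in WT. Kcnj12 fell in KO over both diets by 0.87 on the log2 scale (SE 0.17, edgeR adjusted p = 0.00852).

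The genotype calls of other inward rectifiers lay in the opposite direction. Kcnj5, a subunit that G proteins open, was nearly silent in WT, at 0.706 ± 0.650 CPM under STD and 0.0567 ± 0.003 under HFD, and stood at 26.0 ± 5.31 CPM in STD KO and 12.6 ± 3.58 in HFD KO (SD, n = 3). It rose in KO by 6.42 on the log2 scale (SE 0.42, edgeR adjusted p = 5.78e-06). Kcnj2, which like Kcnj12 carries a strongly rectifying current, was called higher in KO by 0.86 (edgeR adjusted p = 0.0387), but kept the call in 1 of 12 fits that left out 1 library. Kcnj11, the pore of the beta cell channel that ATP closes, had a log2 genotype difference of -0.34 (edgeR adjusted p = 0.141). Of the 9 other tested genes of the family, Kcnj5 and Kcnj2 were the 2 called between genotypes and 0 between diets in KO, with a median KO diet difference of -0.34 beside -0.03 over all genes.

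Itpr2 encodes 1 of the inositol trisphosphate receptors, which release calcium from the endoplasmic reticulum (chromosome 6, 146108299 to 146502223, minus strand). STD WT libraries read 45.6, 44.1 and 36.9 CPM, HFD WT libraries 58.2, 53.5 and 61.8 CPM, STD KO libraries 28.9, 22.1 and 26.9 CPM and HFD KO libraries 14.5, 19.0 and 15.7 CPM. No 2 groups overlapped: HFD WT was highest, then STD WT, STD KO and HFD KO. The means were 57.9 ± 4.15, 42.2 ± 4.65, 25.9 ± 3.51 and 16.4 ± 2.31 CPM in that order (SD, n = 3), so that KO stood 1.63-fold below WT under STD and 3.53-fold below it under HFD. With HFD the log2 difference was -0.66 (SE 0.15) in KO and 0.45 (SE 0.14) in WT. Itpr2 fell in KO over both diets by 1.26 (SE 0.10, edgeR adjusted p = 2.23e-05).

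Itpr3, another of these receptors, also fell in KO, by 0.81 on the log2 scale (SE 0.17, edgeR adjusted p = 0.0144), with means of 76.5 ± 24.2 CPM in STD WT, 60.0 ± 16.2 in STD KO, 91.9 ± 10.0 in HFD WT and 38.4 ± 4.99 in HFD KO (SD, n = 3). Itpr1 was not called, at -0.27 (edgeR adjusted p = 0.353), and read 121 ± 36.9 CPM in STD KO and 68.1 ± 10.6 in HFD KO (SD, n = 3). Of the 24 other tested genes around calcium stores, 3 were called, all lower in KO: Itpr3, Itpka, a kinase of inositol trisphosphate, at -0.85 (edgeR adjusted p = 0.0310), and Atp2a2, the calcium pump of the endoplasmic reticulum, at -0.72 (edgeR adjusted p = 0.0279). The call of Itpka was kept in 4 and that of Atp2a2 in 5 of the 12 fits that left out 1 library. Itpka levels were 3.30 ± 0.487 CPM in HFD WT, 1.02 ± 0.350 in HFD KO and 2.35 ± 0.264 in STD KO (SD, n = 3). The median KO diet difference of these 24 genes was -0.25, and none was called by edgeR (4 at an unadjusted p under 0.05), while DESeq2 called 1, Itpr1, with an edgeR log2 difference of -0.83 (SE 0.22).

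Signalling proteins made the third group. Gnai1 encodes an alpha subunit of the inhibitory G proteins that lower cyclic AMP (chromosome 5, 18265135 to 18360355, minus strand). It read 35.8, 39.4 and 33.9 CPM in STD WT, 48.0, 40.3 and 46.9 in STD KO, 26.3, 24.4 and 27.3 in HFD WT and 26.6, 22.1 and 23.7 CPM in HFD KO. Both HFD groups lay below both STD groups and overlapped each other, while STD KO lay above STD WT by 1.24-fold. Diet differences were -0.90 (SE 0.12) in KO and -0.49 (SE 0.12) in WT on the log2 scale. Gnai1 was the 1 gene of the 10 without a genotype call, at 0.10 (SE 0.08, edgeR adjusted p = 0.534).

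Gnai2, a second inhibitory alpha subunit, rose in KO by 0.62 on the log2 scale (SE 0.10, edgeR adjusted p = 0.00201), from 388 ± 38.2 to 685 ± 34.6 CPM under STD and from 393 ± 26.9 to 528 ± 54.7 CPM under HFD (SD, n = 3). Gnai3 was not called, at 0.16 (edgeR adjusted p = 0.260). Rgs4, which shortens the active time of these subunits, rose in KO by 0.93 (SE 0.18, edgeR adjusted p = 0.00872), with 103 ± 25.2 CPM in HFD KO against 31.1 ± 2.74 in HFD WT and 69.2 ± 28.9 in STD KO against 63.3 ± 5.68 in STD WT (SD, n = 3). Gnai2 and Rgs4 were the 2 genotype calls among 26 other tested genes of inhibitory G proteins, adenylyl cyclases and their receptors, and 0 were called between diets in KO.

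Cabp7 encodes a calmodulin-like calcium sensor also known as calneuron 2 (chromosome 11, 4736892 to 4746778, minus strand). Its values were 42.1, 44.1 and 54.3 CPM in STD WT, 45.3, 32.4 and 47.0 in STD KO, 77.1, 62.7 and 84.4 in HFD WT, and 18.7, 23.8 and 27.2 CPM in HFD KO. Under STD the genotypes overlapped, and with HFD they parted in opposite directions, to 74.7 ± 11.05 CPM in WT and 23.2 ± 4.29 in KO (SD, n = 3). On the log2 scale HFD differed from STD by -0.84 (SE 0.19) in KO and 0.67 (SE 0.19) in WT. Cabp7 was lower in KO as an average of the diets by 0.93 (SE 0.14, edgeR adjusted p = 0.0012), which rests on HFD libraries that also entered the choice. It shares 338 exon bases with Zmat5 on the opposite strand, which read 6.93 to 9.24 CPM. Whether counting used strand is not given in the sources used here. Transcripts that overlap exons of Ttyh1 and Dlg2 read at most 0.167 CPM.

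Of 14 other tested calcium sensors and phosphatidylinositol 4-kinases, 2 were called between genotypes. Vsnl1, a neuronal calcium sensor, fell in KO by 1.96 on the log2 scale (SE 0.16, edgeR adjusted p = 2.05e-05), with means of 18.5 ± 6.09 CPM in STD WT, 4.22 ± 0.231 in STD KO, 29.0 ± 3.49 in HFD WT and 8.43 ± 1.27 in HFD KO (SD, n = 3). Hpcal1, of the same sensor family, fell by 0.43 (SE 0.07, edgeR adjusted p = 0.0029). Caln1, the gene most like Cabp7 in kind, was not tested, at means of 0.0515 CPM or less.

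A scaffold, an elongation factor and a deacetylase remained. Dlg2 encodes a membrane-associated guanylate kinase, also known as PSD-93, that anchors channels and receptors at synapses (chromosome 7, 90476672 to 92449247, plus strand, the longest locus of the 10). STD WT read 3.48, 4.62 and 3.84 CPM, STD KO 4.07, 5.06 and 5.22, HFD WT 3.59, 3.10 and 3.48, and HFD KO 14.5, 11.8 and 14.1 CPM. The first 3 groups lay within a narrow range, and HFD KO stood well above it at 13.5 ± 1.45 CPM (SD, n = 3), 2.81-fold STD KO and 3.97-fold HFD WT. Its log2 diet difference was 1.49 (SE 0.19) in KO and -0.23 (SE 0.19) in WT. Dlg2 was higher in KO as an average of the diets by 1.13 (SE 0.14, edgeR adjusted p = 0.000305). Under STD the genotypes overlapped, so that call rests on HFD libraries that also entered the choice.

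The nearest paralogues Dlg1, Dlg3 and Dlg4 stood higher on the deposited FPKM scale (reads per gene length and library total), at 24.8, 9.82 and 35.5 in HFD KO against 4.60 for Dlg2. They had KO diet differences of -0.02, -0.21 and -0.17 and genotype differences of -0.23, -0.30 and 0.00, none of them called. Of 22 other tested genes of this scaffold family and its synaptic partners, 2 were called, both lower in KO. One of them, Dlgap2, a scaffold partner, fell by 2.68 on the log2 scale (edgeR adjusted p = 0.0232), but its mean passed 0.917 CPM in no group, and the call was kept in 5 of 12 fits that left out 1 library. The median KO diet difference was -0.22 in this list.

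Eef1a2 encodes the form of elongation factor 1A, which brings aminoacyl-tRNA to the ribosome, that neurons and muscle use in place of the ubiquitous Eef1a1 (chromosome 2, 181147653 to 181157014, minus strand). It read 30.7, 33.9 and 27.4 CPM in STD WT, 32.9, 41.7 and 29.6 in STD KO, 18.3, 22.7 and 21.4 in HFD WT and 84.8, 67.7 and 72.0 CPM in HFD KO. The STD genotypes overlapped, HFD WT lay below both and HFD KO above both. Means were 20.8 ± 2.27 CPM in HFD WT and 74.8 ± 8.91 in HFD KO (SD, n = 3), a 3.59-fold gap. Diet differences were 1.11 (SE 0.16) in KO and -0.56 (SE 0.16) in WT on the log2 scale. The gene was higher in KO as an average of the diets by 1.01 (SE 0.11, edgeR adjusted p = 0.00017). That call rests on HFD libraries that also entered the choice.

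Eef1a1 was not called in any of the 4 contrasts, with a KO diet difference of 0.42 (SE 0.23) and a genotype difference of 0.11 (SE 0.16, edgeR adjusted p = 0.743). Of 13 other tested elongation factor genes, 0 were called by edgeR's test in any contrast (3 and 2 at an unadjusted p under 0.05 for genotype and for diet in KO) and 0 by DESeq2. Their median KO diet difference was 0.38 beside -0.03 over all genes.

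Hdac6 encodes a largely cytoplasmic deacetylase of tubulin and other proteins (X chromosome, 7930120 to 7947889, minus strand). Its libraries read 58.3, 66.4 and 52.2 CPM in STD WT, 56.1, 44.5 and 49.7 in STD KO, 88.2, 89.9 and 97.0 in HFD WT and 34.0, 34.3 and 39.2 CPM in HFD KO. As with Cabp7, the STD genotypes overlapped and HFD set WT above and KO below them. The HFD means were 91.7 ± 4.68 CPM in WT and 35.8 ± 2.89 in KO (SD, n = 3), 2.56-fold apart. Log2 diet differences were -0.48 (SE 0.13) in KO and 0.64 (SE 0.13) in WT. Hdac6 was lower in KO as an average of the diets by 0.80 (SE 0.09, edgeR adjusted p = 0.00021). That call rests on HFD libraries that also entered the choice, so it is no independent evidence. Among 16 other tested histone deacetylases and tubulin acetylation genes, 0 were called by edgeR's test for genotype (3 at an unadjusted p under 0.05) or for diet in KO (2 at that p), while DESeq2 called 2 for genotype, Atat1 and Sqstm1. Hdac5 and Hdac10, which are among the other class II genes, had genotype differences of -0.15 (edgeR adjusted p = 0.451) and 0.24 (edgeR adjusted p = 0.601).

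**Figure D2:**
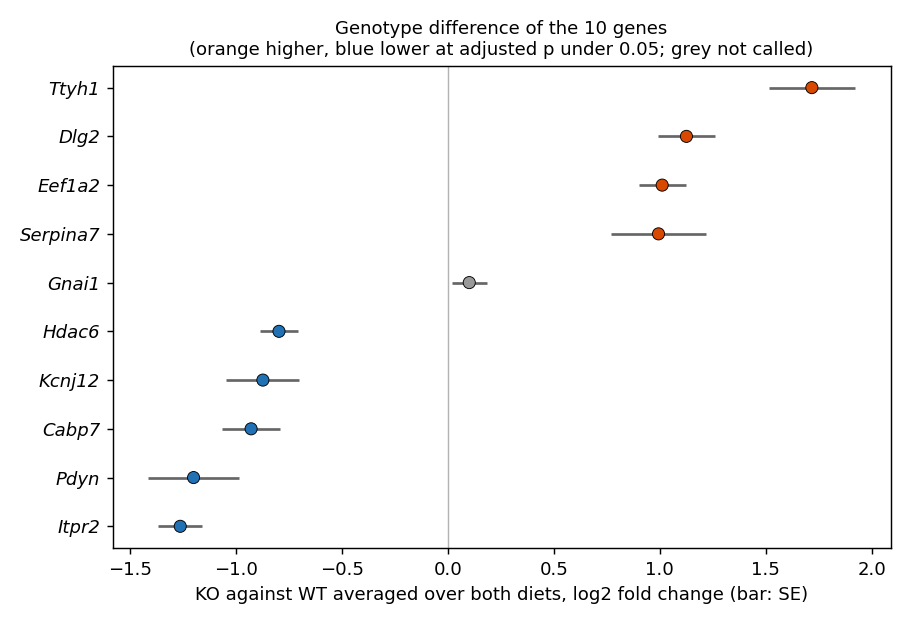
Genotype difference of the 10 genes, KO against WT averaged over both diets, as log2 fold change on the x axis with its SE as bar. Ttyh1 had the highest value at 1.72 and Itpr2 the lowest at -1.26, and Gnai1 (0.10) was not called.

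For genotype, 1249 of the 16076 genes were called (7.77%), 671 higher in KO (4.17%) and 578 lower (3.6%). Of the 10 genes, 4 were called higher (Ttyh1, Serpina7, Dlg2 and Eef1a2) and 5 lower (Pdyn, Kcnj12, Cabp7, Itpr2 and Hdac6). Except for Serpina7, these calls were kept in all 12 fits that left out 1 library, and all 9 were kept without STD WT 3 and the library labelled HFD KO 2. Libraries left in those fits also entered the choice, so a kept call shows only that no single library carried it. The averaged difference drew on unequal parts. For Serpina7, Dlg2, Eef1a2, Cabp7 and Hdac6 the STD genotypes overlapped, so these 5 of the 9 calls rest on HFD libraries that also entered the choice. For Pdyn the HFD genotypes overlapped, so its call rests on STD libraries, of which STD KO entered the choice as well. Ttyh1, Kcnj12 and Itpr2 differed by 7.34-fold, 2.62-fold and 3.53-fold under HFD, against 1.48-fold, 1.29-fold and 1.63-fold under STD. Ttyh1 was higher in all 6 KO libraries than in any WT library (2.95% of all tested genes did so) and Itpr2 lower (2.38%), whereas the libraries of the 8 others overlapped between genotypes. Under STD, KO lay without overlap above WT for Ttyh1 and Gnai1 (7.52% of all genes) and below it for Pdyn, Kcnj12 and Itpr2 (7.32%). The STD libraries enter the choice too, STD KO in both contrasts that made it. With HFD, which enters the choice as well, KO lay above WT for Ttyh1, Serpina7, Dlg2 and Eef1a2 (11.2%). It lay below WT there for Kcnj12, Cabp7, Itpr2 and Hdac6 (13.3%).

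**Figure D3:**
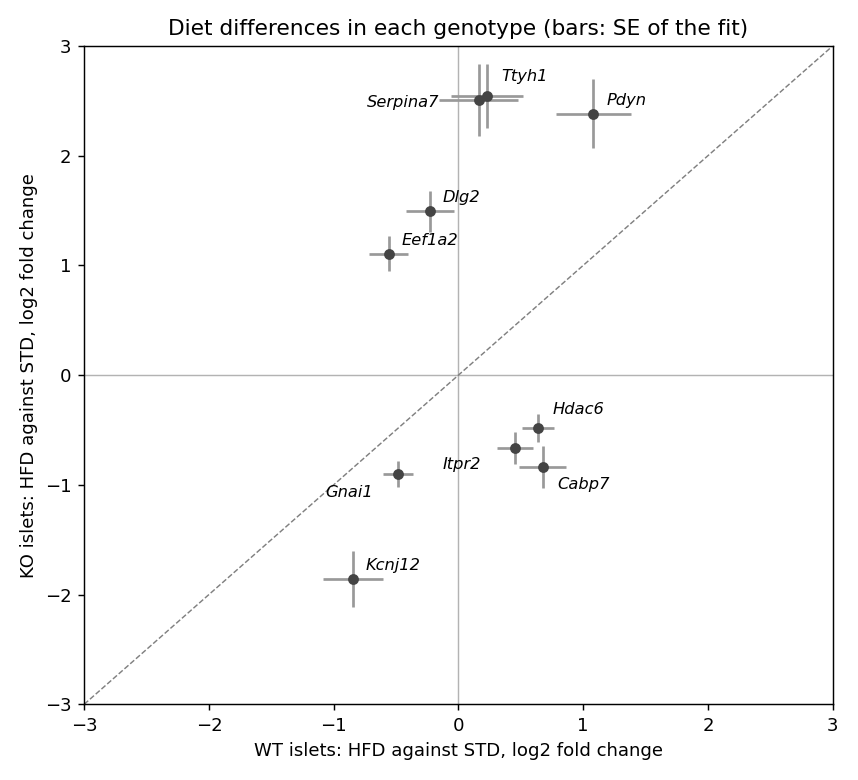
Log2 difference between HFD and STD in WT (x axis) against that in KO (y axis) for the 10 genes, each with its SE as bars. Cabp7, Itpr2 and Hdac6 lie in the quadrant that is higher in WT and lower in KO, Eef1a2 and Dlg2 in the opposite one, and Pdyn, Kcnj12 and Gnai1 lie on the same side in both genotypes.

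Set side by side, the diet differences in the 2 genotypes took 3 forms, given here as a description because they chose the genes. Ttyh1, Serpina7 and Dlg2 differed in KO and had overlapping WT libraries. Pdyn, Kcnj12 and Gnai1 differed in the same direction without overlap in both genotypes, by the larger size in KO. Eef1a2, Cabp7, Itpr2 and Hdac6 differed in opposite directions without overlap. In KO, 5 of the 10 genes were higher with HFD without overlap (5.91% of all tested genes) and 5 lower (6.23%), which the choice fixes. WT libraries were higher with HFD for Pdyn, Cabp7, Itpr2 and Hdac6 (5.06% of all genes) and lower for Eef1a2, Kcnj12 and Gnai1 (4.53%). No gene of the 16076 was called between diets in WT by edgeR's test (0%), with 762 at an unadjusted p under 0.05 and 43 called by DESeq2. HFD KO stood apart from the other 9 libraries for 8 of the 10 genes, above them for Ttyh1, Serpina7, Dlg2 and Eef1a2 (2.36% of all genes) and below them for Kcnj12, Cabp7, Itpr2 and Hdac6 (2.18%).

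The difference in earlier standard feeding between the HFD groups, 4 weeks in WT and 5 to 6 in KO, runs with genotype and cannot be told apart from it within HFD. Over all 16076 genes, which are not independent, the KO diet difference ran against gene length with Spearman's rho of -0.339. Corrected for each library's trend with gene length, the KO diet difference of Gnai1 was -0.74 and its interaction -0.22 (-0.41 before), and the interaction of Itpr2 was -0.93 (-1.12 before). The direction of all 10 genes was the same under that correction in both contrasts. Of the 5 genes higher with HFD in KO, Pdyn, Ttyh1, Serpina7 and Eef1a2 had lengths of 1134 to 2084 bases, and Dlg2 2831. The 5 lower genes had 2150 to 3135 bases, and what part length plays in the choice was not tested.

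**Figure D4:**
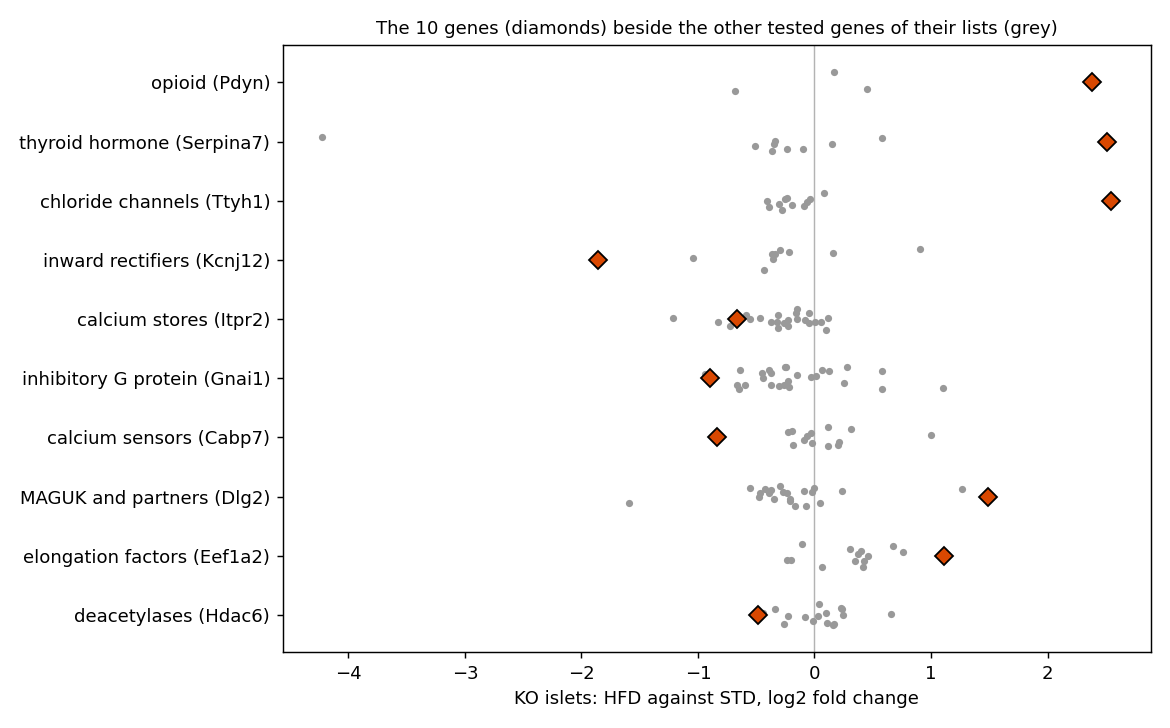
Log2 fold changes of the other tested genes in the 10 lists of relatives and pathway partners (points), with the 10 chosen genes as diamonds, for HFD against STD in KO on the x axis. The lowest point, at -4.22, is Alb, and the other genes of the chloride channel list lie between -0.41 and 0.08, with Ttyh1 at 2.55.

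Over the 10 lists, which hold 167 genes besides the 10, 147 were tested. Between genotypes 14 were called (9.52%, beside 7.77% of all genes), 6 higher in KO and 8 lower. Between diets 0 were called in KO and 0 in WT by edgeR's test, and 0 for the interaction, with 24, 20 and 16 genes at an unadjusted p under 0.05. DESeq2 called 2 in KO (Itpr1 and Vsnl1), 0 in WT and 1 for the interaction (Rgs4).

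FPKM divide by a gene length that the deposited values imply, 2886 bases for Itpr2 (63 exon blocks), 2150 for Hdac6 and 2084 for Eef1a2. How it was set is not given in the sources used here, so the order of genes holds on this scale only. Pdyn had the highest FPKM of the 10 in each group, at 101 ± 40.2 in STD WT, 30.7 ± 4.07 in STD KO, 205 ± 27.6 in HFD WT and 140 ± 45.3 in HFD KO (SD, n = 3). In STD WT it was followed by Hdac6 at 27.2 FPKM and Cabp7 at 17.6, with Eef1a2 and Itpr2 overlapping at 14.6 each. Gnai1, Serpina7 and Ttyh1 came next at 11.5, 8.43 and 6.75 FPKM, each overlapping its neighbour, and Kcnj12 and Dlg2 were lowest at 2.59 and 1.39. STD KO had a flatter order, in which Pdyn overlapped Hdac6 at 25.4 FPKM. In HFD KO the order was Pdyn, then Ttyh1 at 55.5, Serpina7 at 40.3 and Eef1a2 at 34.6 FPKM, the last 3 overlapping in turn. Below them Hdac6 stood at 16.2, Cabp7 at 8.61, Gnai1 at 7.43, Itpr2 at 5.46, Dlg2 at 4.60 and Kcnj12 at 0.541 FPKM. Ttyh1 thus stood at position 8 in STD WT and 2 in HFD KO, and Serpina7 at 7 and 3.

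**Figure D5:**
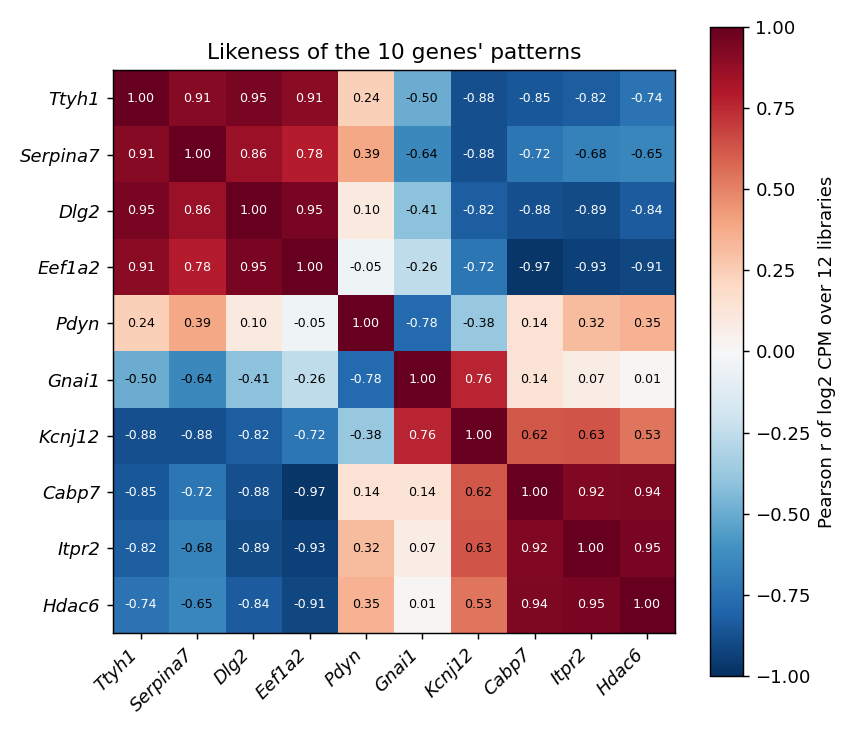
Pearson r of log2 CPM between the 10 genes over the 12 libraries, from -1 (blue) to 1 (red). One block holds Ttyh1, Serpina7, Dlg2 and Eef1a2 (r 0.78 to 0.95), another Cabp7, Itpr2 and Hdac6 (0.92 to 0.95), with negative values between the blocks, and Pdyn and Gnai1 stand outside both.

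Likeness of pattern was measured as Pearson r of log2 CPM over the 12 libraries, which share their group structure and sequencing depth, so it is a description. Between the blocks r reached -0.97 for Eef1a2 and Cabp7. Pdyn ran against Gnai1 at -0.78, and Kcnj12 ran with Gnai1 at 0.76. Among 12494 other genes, those most like Ttyh1 were Ckb (0.957), brain creatine kinase, and Chid1 (0.938). Ckb read 60.9 ± 5.27 CPM in STD WT, 87.9 ± 13.9 in STD KO, 81.3 ± 7.90 in HFD WT and 166 ± 36.5 in HFD KO (SD, n = 3). Serpina7 was most like Mfsd8 (0.942), a lysosomal membrane protein, which read 11.9 ± 1.09 CPM in STD KO and 16.9 ± 1.75 in HFD KO (SD, n = 3). For Dlg2 the nearest were Slc17a9 (0.943), the vesicular nucleotide transporter, and Agpat5 (0.935), and for Eef1a2 Arhgap10 (0.957) and Sdcbp (0.939). Pdyn was nearest to Map3k19 (0.917) and Sgcd (0.906).

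In the block that was lowest in HFD KO, the nearest genes had higher r. Cabp7 was most like Pip5k1c (0.981), a kinase that makes the lipid from which inositol trisphosphate is cut, and Sez6l (0.971), which read 378 ± 80.9 CPM in HFD WT and 116 ± 37.4 in HFD KO (SD, n = 3). Itpr2 was most like Lmx1b (0.978), a homeodomain transcription factor, and Syt2 (0.976), a calcium sensor of vesicle fusion. Lmx1b read 7.75 ± 0.943 CPM in STD WT, 4.01 ± 0.585 in STD KO, 10.7 ± 2.20 in HFD WT and 1.75 ± 0.352 in HFD KO (SD, n = 3), in the same order of groups as Itpr2. Hdac6 was most like Nectin1 (0.963), an adhesion protein, which read 29.1 ± 3.54 CPM in HFD WT and 7.31 ± 2.13 in HFD KO (SD, n = 3). Kcnj12 was nearest to Fut11 (0.933) and Tcf7l2 (0.921), the transcription factor known from type 2 diabetes genetics, and Gnai1 to Zbtb7c (0.887) and Slc30a1 (0.856).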

How the data were processed

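Per library, the deposited files hold the authors' read counts of each gene and FPKM values. Per the submitters' processing notes, mm10, TopHat2, Cufflinks and DESeq were used, without versions; not given in the sources used here are the tool behind each file, the annotation release, and how reads were counted, strand included. Gene length was worked back from the deposited FPKM, counts and library totals, as the median over libraries. All 257939 values compared gave the length of their gene within a relative tolerance of 1e-05. This shows a length that is constant between libraries, not agreement with a known one. That length also entered the trend and the correction for gene length, and the FPKM themselves serve only to compare genes. Symbols came by Ensembl ID (54409 of 54532) and positions from GENCODE M21.

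Counts were fitted with edgeR 4.0.16 in R 4.3.3: filterByExpr (minimum count 10, minimum total 15), TMM scaling, robust quasi-likelihood with 1 mean per group over all 12 libraries, and Benjamini-Hochberg adjustment over 16076 genes at 0.05. Contrasts were KO against WT averaged over both diets, HFD against STD in each genotype, and the interaction. CPM are counts over TMM-scaled totals. The common biological coefficient of variation was 0.307, so spread between libraries rather than counting limits precision, apart from the lowest genes. On simulated data, 97 of 100 genes changed 4-fold and 75 of 100 changed 2-fold were recovered for genotype (15878 genes, 12 false calls). For diet in KO 88 and 48 were recovered (15863 genes, 6 false calls), and for the interaction 66 and 11 (15879 genes, 4 false calls). The changed genes were drawn only from those above a minimum mean count, so recovery of the lowest genes was not tested. The genes, their lists and the tests were chosen with earlier results of these data known. Named besides the 10 are their closest relatives, list genes past the threshold (up to 4 per list and contrast) and the 2 genes of highest Pearson r per gene (mean of at least 2 CPM, no predicted genes); Alb, Gfra3, Cebpd, Tph1 and the marker genes were picked with their values in view. Some genes that this rule names are not reported here. The alternatives tried were DESeq2 1.42.0 size factors and Wald test, no filter, a filter of at least 1 CPM in 6 libraries, the replicate number as a block, offsets corrected for gene length, and leaving out libraries. Promoter sequences came from RefSeq (GRCm38.p6), with a window for all 10 genes.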

Additional observations from a re-analysis of the deposited data

Results flagged for a closer look

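Among the 10 genes, their closest relatives and the list genes called between genotypes, 5 had HFD libraries that all lay above the STD libraries in one genotype and all below them in the other; the difference between genotypes is given as KO minus WT on the log2 scale. Eef1a2 was higher with HFD in KO and lower in WT, by 1.67. Lower in KO and higher in WT were Cabp7 (-1.51), Itpr2 (-1.12), Hdac6 (-1.12) and Itpka (-1.70). The first 4 were chosen for such a difference, so it is no test of them. The genes most like them in pattern were not searched. The share of all tested genes with such opposite directions was not counted, so the 5 cannot be set against it. Without overlap, 5.91% of all tested genes were higher and 6.23% lower with HFD in KO, and 5.06% and 4.53% in WT. For Itpka the interaction was not called (edgeR adjusted p = 0.621), and its level did not pass 3.75 CPM in any library.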

How the results depend on the processing

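For KO against WT averaged over both diets, 823 to 1910 genes were called when 1 library was left out, the extremes without HFD WT 3 and without HFD KO 3, against 1249 with all. For HFD against STD in KO, leaving out 1 library gave 0 to 802 calls against 7, with 802 without HFD KO 3; all 7 remained among these, and among the 9 without HFD WT 2. In that contrast DESeq2's Wald test gave 140 calls (with all 7), no filter 9, the correction for gene length 6, and leaving out STD WT 3 with the library labelled HFD KO 2 gave 2. DESeq2 also called 43 genes for diet in WT and 31 for the interaction, against 0 by edgeR, and without a filter edgeR called 1 for the interaction; the cause was not tested. With the replicate number as a replicate block, genotype gave 1249 calls, split into 627 higher and 622 lower (671 and 578 without it), and diet in KO gave 0. Deviations of same-numbered libraries correlated at -0.114, 0.186 and 0.093 between HFD KO and STD KO and at -0.4, -0.107 and 0.011 between HFD WT and STD WT, but at 0.515, 0.41 and 0.336 between HFD KO and HFD WT, where each library was most like its own number. As a hint from the data, the numbers may mark something shared within HFD; over all groups they were not taken to pair the samples. No log2 difference of the 10 genes changed sign in a contrast under these alternatives. Scaling by total counts alone shifted the median of all genes by -0.20 for diet in KO (-0.03 with TMM). The call of Serpina7 for genotype is the 1 of 9 that was lost in some of them. Counts of 15 to 32 per library limit Kcnj12 in HFD KO.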
